A study of Mus musculus with 6 samples.

Results

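Scavenger and tissue macrophage receptors were examined in osteoclast precursors (OCPs) with and without lincRNA-EPS, a long non-coding RNA. They were the 10 genes Siglec1, Mrc1, Msr1, Cd163, Cd36, Marco, Stab1, Scarb1, Cd68 and Adgre1, picked by gene name from the 57180 genes of the count table, and each name matched 1 row. RNA was sequenced from 3 WT and 3 KO cultures, with 1 library per culture. KO mice lacked lincRNA-EPS and were made by a model organism supplier. The labels call the cells bone marrow-derived macrophages and describe both genotypes as RANKL induced, and all cultures received M-CSF, on which macrophages depend for growth, at 40 ng/ml for 24 h, and RANKL, the cytokine that starts osteoclast differentiation, at 40 ng/ml for 48 h. The methods name WT and KO C57BL/6 mice, male and of 1 stated age, for the periodontitis model and do not repeat strain, age or sex for the marrow donors. They describe replicates of the whole study as coming from separate mice or independent cultures, without saying which applies to these libraries, so the p-values measure the spread between cultures that may share a donor.

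Macrophages carry receptors that bind modified lipoproteins, bacterial surfaces, glycans and dying cells, and take them up for digestion in lysosomes. Scavenger receptors of several unrelated protein families share this task, and lectins and adhesion receptors on resident macrophages complement them. The same marrow precursors become macrophages under M-CSF and osteoclasts when RANKL is added, and a maturing osteoclast loses many of the surface proteins by which tissue macrophages are recognised.

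The libraries held 17757351 to 19998611 estimated counts each, and no pair agreed within sampling noise. Ttc39aos1, the name of lincRNA-EPS in the table, had 20, 37 and 41 counts in the WT libraries and 0 in each KO library. Macrophage markers were abundant in both genotypes, with a summed level of 15439 to 16715 CPM (counts scaled to a common library total) in WT and 13989 to 16765 CPM in KO cultures. Lyz2 alone made up 11503 to 14417 CPM of each sum, and the other 8 markers summed to 2692 to 2912 CPM in WT and 2348 to 2487 CPM in KO cultures, without overlap. Of these 9 markers, 4 were lower in KO cultures at an unadjusted p-value under 0.05 in edgeR's quasi-likelihood test and none was higher. Markers of osteoclasts summed to 4945 to 5365 CPM in WT and 6685 to 7104 CPM in KO cultures, and 6 of 9 were higher at that limit. Neutrophil markers summed to 1297 to 1456 CPM in WT and 1711 to 2040 CPM in KO cultures, with 5 higher and 2 lower of 9 tested. Low in level but also apart between genotypes were dendritic cell markers, at 13.7 to 17.8 CPM in WT and 19.1 to 21.7 CPM in KO cultures with 0 of 6 past that limit, and mast cell and basophil markers, at 0.876 to 1.63 and 2.75 to 3.05 CPM, with 2 of 2 tested higher and Mcpt4 and Tpsb2 at 0. T and NK cell markers were apart as well, at 0.438 to 0.577 and 0.662 to 0.690 CPM, and 0 of them passed the filter on low counts. The part of these cell types in the receptor results was not tested, and in bulk RNA fewer cells of a type cannot be told apart from less RNA per cell.

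Fold changes also followed the base composition of transcripts. The KO minus WT log2 fold change and the GC content of the longest transcript had a Pearson r of -0.510 over 13176 genes, and genes are no independent replicates. Some pairs of libraries of 1 genotype showed the same kind of trend, with r = -0.522 for KO replicate 3 minus KO replicate 1 and r = 0.426 for WT replicate 2 minus WT replicate 1. KO replicate 3 and WT replicate 2 therefore stood apart from the others. Between the other libraries r was -0.0945 to -0.191 for KO minus WT. It was 0.0408 for WT replicate 3 minus WT replicate 1 and -0.101 for KO replicate 2 minus KO replicate 1. The receptors are also given with a correction for GC content. Under it the macrophage markers numbered 3 lower, the osteoclast markers 7 higher, and the neutrophil markers 6 higher and 0 lower.

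The first question was which receptors differed between WT and KO OCPs. Siglec1 and Stab1 were the members with the largest difference, at 2.43 and 1.63 times the KO level in WT cultures. Adgre1, Scarb1 and Marco were lower in KO cultures by smaller amounts, and Mrc1, Msr1, Cd36, Cd68 and Cd163 had adjusted p-values of 0.352 or more. No receptor was called by edgeR with the limits used here, an adjusted p-value below 0.01 together with more than a 1.3-fold difference, where 1 of 13428 genes was called (0.00745%). At an unadjusted p-value under 0.05, 5 of the 10 were lower in KO cultures and 0 were higher, beside 13.2% of all tested genes that were lower and 13% that were higher. In 6 of the 10 all KO libraries lay below all WT libraries, beside 18.8% of all tested genes. The median log2 fold change was -0.21 over the receptors and 0.0091 over all tested genes. All 10 passed the filter on low counts.

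**Figure D1:**
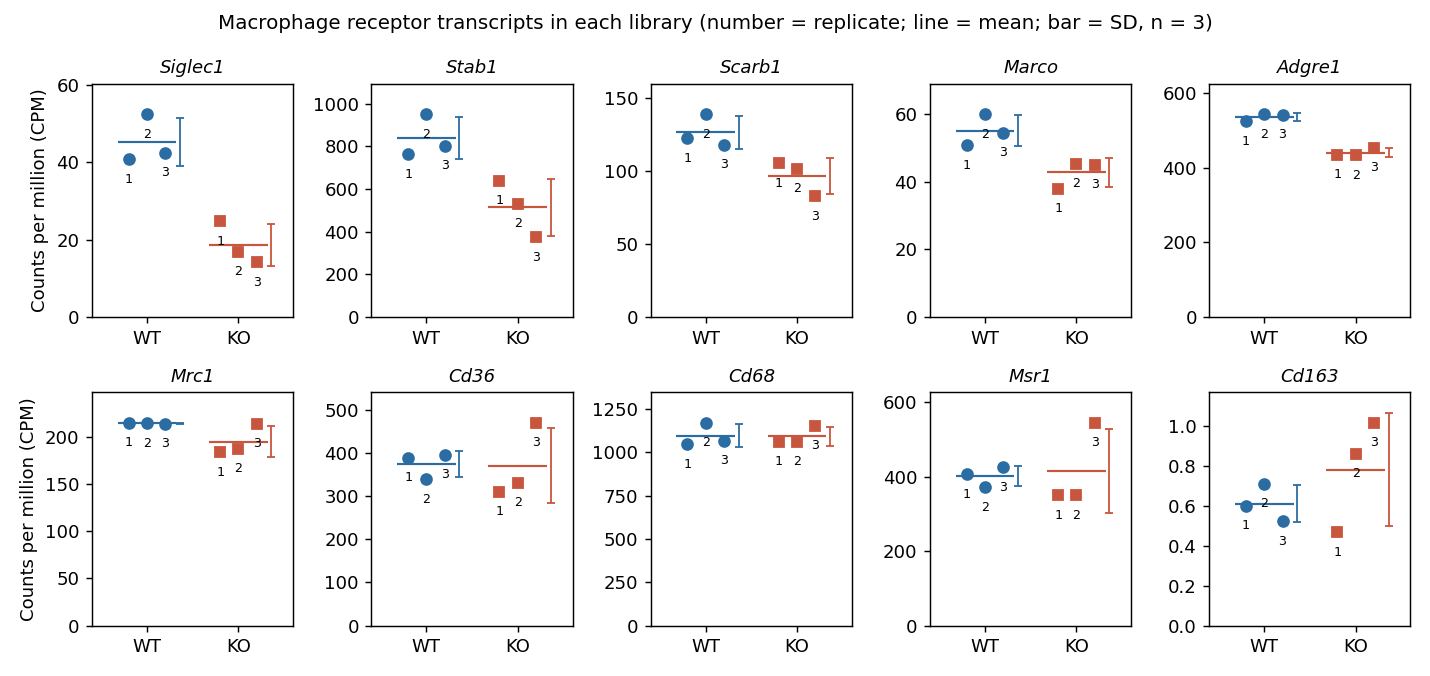
Normalized level of each receptor in CPM (vertical axes, linear and starting at 0) in WT (circles) and KO (squares) libraries, with the replicate number under each point, the mean as a line and the SD as a bar (n = 3 per genotype). The KO points of Siglec1 lie between 14.2 and 24.7 CPM and its WT points between 40.8 and 52.5 CPM, whereas the Cd68 points of both genotypes mix.

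The receptors differed widely in abundance. Levels of different genes were compared as CPM per kb of transcript. Cd68 was highest in WT cultures at 890 ± 54.1 CPM per kb (SD, n = 3), followed by Adgre1 at 166 ± 3.26. Msr1, Cd36 and Stab1 came next at 110 ± 7.35, 110 ± 8.99 and 105 ± 12.5 CPM per kb, and these neighbours did not differ beyond their spread. Scarb1 had 50.2 ± 4.40, Mrc1 39.9 ± 0.0957, Marco 28.6 ± 2.41 and Siglec1 7.09 ± 0.989 CPM per kb. Cd163 was last at 0.138 ± 0.0211 CPM per kb. The order of the mean levels was identical in KO cultures, although Stab1, at 64.3 ± 16.6 CPM per kb, was then farther below Msr1 and Cd36, at 114 ± 30.9 and 109 ± 25.5.

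Siglec1 (ENSMUSG00000027322) encodes sialoadhesin, or CD169, a lectin on resident macrophages that binds sialic acid and is induced by interferons. Its level was 40.8, 52.5 and 42.5 CPM in WT replicates 1, 2 and 3, and 24.7, 16.9 and 14.2 CPM in KO replicates 1, 2 and 3. The lowest WT library was above the highest KO library. The mean was 45.3 ± 6.32 CPM in WT and 18.6 ± 5.49 CPM in KO cultures (SD, n = 3). The log2 fold change was -1.28 with a standard error (SE) of 0.20, an unadjusted p-value of 0.000143 and an adjusted p-value of 0.120 in edgeR. Siglec1 ranked 14 among all tested genes by p-value. DESeq2, run as an alternative, gave the same size of difference with an adjusted p-value of 2.19e-06 and called the gene, as it called 0.695% of its genes as lower in KO cultures. With the GC correction the edgeR log2 fold change was -1.05 with an adjusted p-value of 0.0166. Its estimated counts were whole in all WT libraries (814, 959 and 809) and not whole in all KO libraries (474.76, 294.02 and 277.55), a pattern found in 33 of the tested genes, with the reverse in 21. Values that are not whole arise when a counting tool divides reads between features. In GENCODE M21 on GRCm38 no other gene overlaps Siglec1 in position. Sequence shared with other genes was not examined, so the source of these values was not tested.

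Of the Siglec family, 8 other members were listed and tested. Beside this and every list below, 13.2% of all tested genes were lower and 13% higher at an unadjusted p-value under 0.05. At that limit, 0 of the family were higher and 0 were lower, and their median log2 fold change was 0.14. Without WT replicate 3 that median was -0.057. Those with the smallest p-values were Mag, at 5.39 CPM in WT and 4.14 CPM in KO cultures, Siglech, at 1.62 and 2.33 CPM, and Cd22, at 7.08 and 5.69 CPM. The log2 fold change of Mag was -0.38, and -0.11 with the GC correction, under which 1 member of the family was higher at that limit and 0 were lower. That member was Siglece, named here after its values were seen, at 6.01 and 6.92 CPM without the correction.

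Siglec1 is itself an interferon-stimulated gene, so 14 others were read beside it. All were tested, 13 had a negative log2 fold change, 6 were lower in KO cultures at an unadjusted p-value under 0.05 and 0 were higher. Their median log2 fold change was -0.46, or -0.54 after the GC correction, under which 10 were lower and 0 higher at that limit. Irf7, the transcription factor that amplifies the interferon response, had 16.4, 16.9 and 17.8 CPM in WT and 7.81, 8.97 and 7.74 CPM in KO libraries. Its log2 fold change was -1.06 with an SE of 0.12 and an adjusted p-value of 0.0635. Oas1a, an antiviral sensor of double-stranded RNA, had 48.3 ± 3.003 CPM in WT and 31.9 ± 1.83 CPM in KO cultures (SD, n = 3). Zbp1, a sensor of nucleic acids, had 2.25 ± 0.138 and 1.22 ± 0.0760 CPM. These 3 genes were named for the smallest p-values of the list. In each the KO libraries lay below the WT libraries without overlap, as in 18.8% of all tested genes.

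Mrc1 (ENSMUSG00000026712) encodes the mannose receptor CD206, a lectin that takes up mannose-bearing glycoproteins and marks alternatively activated macrophages. WT libraries had 214.8, 214.1 and 213.8 CPM, and KO libraries 183.5, 187.2 and 213.6 CPM. KO replicates 1 and 2 were below the WT libraries, and KO replicate 3 was almost level with them. KO and WT differed by a log2 fold change of -0.14 with an SE of 0.093 and an adjusted p-value of 0.352. After the GC correction it was -0.32 with an adjusted p-value of 0.0594. Without KO replicate 3 and without the correction it was -0.21, with an unadjusted p-value of 0.0267 and an adjusted p-value of 0.216 in edgeR.

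Among 8 alternative activation genes other than Mrc1, 4 were tested, and 3 were lower and 1 was higher at an unadjusted p-value under 0.05. The 1 that was higher, Chil3, which encodes the chitinase-like protein Ym1, had 196 ± 7.89 CPM in WT and 267 ± 30.8 CPM in KO cultures (SD, n = 3). Il4ra, the receptor chain for IL-4 and IL-13, had 87.3 ± 9.06 and 63.9 ± 8.80 CPM. Il10ra, a chain of the IL-10 receptor, had 52.9 ± 4.61 and 42.4 ± 1.39 CPM. The GC correction left the counts of this list as they were and brought the log2 fold change of Il4ra from -0.45 to -0.25 and that of Il10ra from -0.32 to -0.20. Lectins and other receptors of tissue macrophages numbered 19 in the list, of which 12 were tested, with 4 lower and 1 higher at that limit. Their median log2 fold change was -0.087, and it ranged from -0.13 to -0.048 with 1 library left out. Mertk, a receptor tyrosine kinase by which macrophages clear apoptotic cells, had 25.3, 26.5 and 26.3 CPM in WT and 18.5, 17.0 and 16.9 CPM in KO libraries. Its log2 fold change was -0.57 with an SE of 0.10 and an adjusted p-value of 0.136, or 0.0240 after the GC correction. Trem2, a lipid-sensing receptor, had 337 ± 10.6 CPM in WT and 259 ± 30.2 CPM in KO cultures. Axl, a relative of Mertk, had 31.3 ± 3.21 and 24.7 ± 3.50 CPM. Its log2 fold change of -0.34 was -0.18 with the GC correction, with an unadjusted p-value of 0.154 and overlapping groups. With the correction 4 genes of this list were lower and 0 were higher at an unadjusted p-value under 0.05.

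Stab1 (ENSMUSG00000042286) encodes stabilin-1, an endocytic receptor that clears modified proteins and dying cells. WT libraries had 762, 951 and 802 CPM, and KO libraries had 638, 530 and 374 CPM. All KO libraries were below all WT libraries, and KO replicate 3 was the lowest. The mean was 839 ± 99.6 CPM in WT and 514 ± 133 CPM in KO cultures (SD, n = 3). This gave a log2 fold change of -0.71 with an SE of 0.18 and an adjusted p-value of 0.147. Stab1 had the highest GC content of the receptors, at 57.3%, and the GC correction brought the log2 fold change to -0.46 with an adjusted p-value of 0.0584. Stab1 shares 112 exonic bases with Nt5dc2 on the opposite strand. The libraries were made with a kit that keeps strand, and the strand setting of the counting is not given in the sources used here.

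Promoters were read from RefSeq on GRCm38.p6 for the 6 receptors that matched by symbol in the table used here, namely Mrc1, Cd163, Cd36, Marco, Stab1 and Cd68. Siglec1, Msr1, Scarb1 and Adgre1 had no entry. Each covers 250 bases before and 50 after the start of the gene. Searched on both strands were GAAANNGAA (an interferon response element, in 8.56% of 32851 promoters), GAGGAAGT (an ETS site of the kind PU.1 binds, 3.20%), CACGTG (an E-box of the kind Mitf and Tfe3 bind, 7.15%) and TGANTCA (an AP-1 site, 7.81%). Cd68 held 2 AP-1 sites and the other 5 promoters held none of these letters. The promoters of Stab1 (chr14:31168592-31168891, minus strand), with the largest difference among these 6, and Cd68 (chr11:69666121-69666420, minus strand), the most abundant receptor per kb, are shown 5′ to 3′, with AP-1 sites in capitals.
Stab1: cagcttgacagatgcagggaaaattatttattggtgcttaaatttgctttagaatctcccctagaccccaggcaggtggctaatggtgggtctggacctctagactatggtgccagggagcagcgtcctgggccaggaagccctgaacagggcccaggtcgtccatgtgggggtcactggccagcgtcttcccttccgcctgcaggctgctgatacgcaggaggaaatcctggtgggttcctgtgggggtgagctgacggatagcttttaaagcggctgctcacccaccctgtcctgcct
Cd68: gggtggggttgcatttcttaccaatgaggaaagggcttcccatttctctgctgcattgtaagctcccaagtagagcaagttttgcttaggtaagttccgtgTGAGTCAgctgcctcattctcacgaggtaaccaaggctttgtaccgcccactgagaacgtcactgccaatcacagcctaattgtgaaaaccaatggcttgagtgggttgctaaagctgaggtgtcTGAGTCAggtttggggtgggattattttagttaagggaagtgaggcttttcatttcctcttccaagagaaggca
A match is a description of the letters and not evidence of binding.

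Msr1 (ENSMUSG00000025044) and Marco (ENSMUSG00000026390) are class A scavenger receptors, which bind modified low-density lipoprotein and bacteria. Msr1 had 406, 372 and 425 CPM in WT libraries and 350, 351 and 545 CPM in KO libraries. KO replicates 1 and 2 were below the WT libraries and KO replicate 3 was the highest of all, so the groups overlapped. The log2 fold change was 0.05 with an SE of 0.17 and an adjusted p-value of 0.863. Its transcript is poor in GC, at 38.4%. After the GC correction the levels were 421, 480 and 447 CPM in WT and 353, 337 and 398 CPM in KO libraries. The groups then did not overlap, and the log2 fold change was -0.31 with an adjusted p-value of 0.0834. Without KO replicate 3 and without the correction it was -0.19, with an adjusted p-value of 0.270.

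Marco had 50.8, 60.0 and 54.5 CPM in WT libraries and 37.9, 45.4 and 45.0 CPM in KO libraries, without overlap. Marco had a log2 fold change of -0.37 with an SE of 0.11 and an adjusted p-value of 0.147. Marco is rich in GC, at 54.5%. With the correction the log2 fold change was -0.19 with an adjusted p-value of 0.322, and the groups overlapped.

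Cd36 (ENSMUSG00000002944) and Scarb1 (ENSMUSG00000037936) are class B scavenger receptors. Cd36 takes up oxidised lipoprotein and fatty acids, and Scarb1 is the receptor for high-density lipoprotein. Cd36 had 389, 340 and 396 CPM in WT libraries and 310, 332 and 470 CPM in KO libraries. As for Msr1, KO replicate 3 was the highest of all 6 libraries and the other KO libraries were the lowest. Its log2 fold change was -0.016 with an SE of 0.16 and an adjusted p-value of 0.955. Cd36 has a GC content of 38.4%, and with the correction the levels were 403, 438 and 416 CPM in WT and 313, 319 and 344 CPM in KO libraries. The groups were then apart, and the log2 fold change was -0.36 with an adjusted p-value of 0.0463. Without KO replicate 3 and without the correction it was -0.22, with an adjusted p-value of 0.250.

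Scarb1 had 123, 139 and 118 CPM in WT libraries and 106, 102 and 82.8 CPM in KO libraries. The groups did not overlap, and KO replicate 3 was the lowest. The log2 fold change was -0.39 with an SE of 0.12 and an adjusted p-value of 0.147. The GC content of 48.5% is near the median of the tested genes, 49.2%, and the corrected log2 fold change was -0.41 with an adjusted p-value of 0.0764. That GC content was read from the longest annotated Scarb1 transcript, which keeps an intron.

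**Figure D2:**
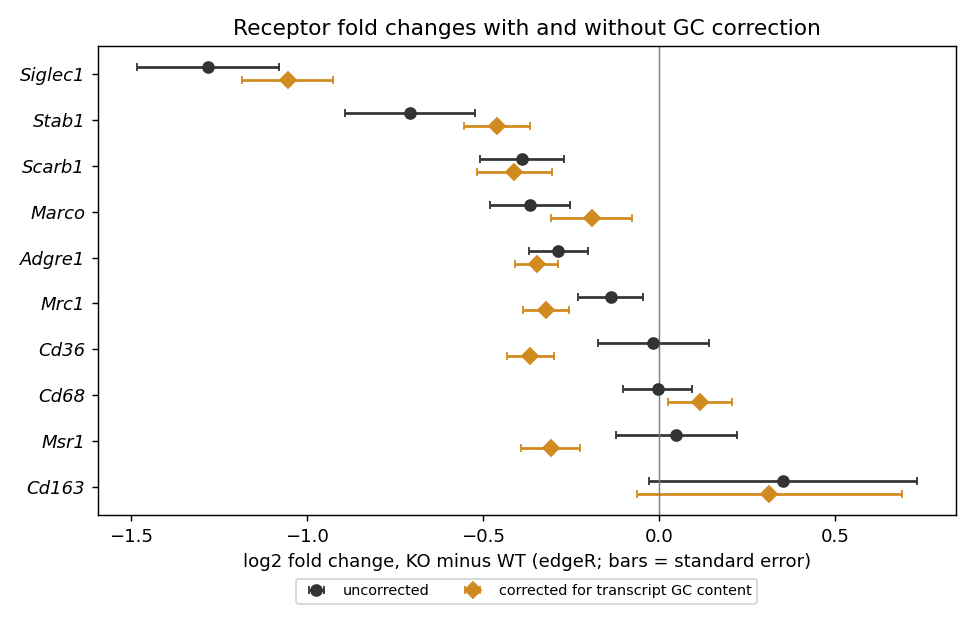
Log2 fold change of each receptor, KO minus WT (horizontal axis), from edgeR without (circles) and with (diamonds) the correction for transcript GC content, with standard errors as bars. Siglec1 moves from -1.28 to -1.05 and Stab1 from -0.71 to -0.46, towards 0, whereas Cd36 moves from -0.016 to -0.36 and Msr1 from 0.05 to -0.31.

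Of 15 other scavenger receptors, 12 were expressed enough to be tested. At an unadjusted p-value under 0.05, 4 were lower and 0 were higher, and the median log2 fold change was -0.16. With 1 library left out that median ranged from -0.25 to -0.047. Lrp1, a large receptor that clears lipoproteins and proteases, had 2514, 3457 and 2691 CPM in WT and 2077, 1413 and 968 CPM in KO libraries. Its log2 fold change was -0.96 with an SE of 0.25 and an adjusted p-value of 0.147, or -0.70 and 0.0622 with the GC correction. Cxcl16, which is both a chemokine and a receptor for oxidised lipoprotein, had 93.5 ± 2.85 CPM in WT and 76.8 ± 3.99 CPM in KO cultures (SD, n = 3). Scarf1, a scavenger receptor of class F, had 24.3 ± 2.71 and 18.0 ± 2.55 CPM. For Scarf1 the log2 fold change went from -0.43 to -0.11 with the GC correction, with an unadjusted p-value of 0.273 and overlapping groups. The list then had 2 genes lower and 2 higher at that limit.

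Lipid-handling genes other than these receptors were all tested, 16 in number, with 6 lower and 0 higher at an unadjusted p-value under 0.05 and a median log2 fold change of -0.16. Rxra, the partner of the lipid-sensing nuclear receptors, had 56.2 ± 5.86 CPM in WT and 36.4 ± 5.43 CPM in KO cultures (SD, n = 3). Abca1, which exports cholesterol, had 87.8 ± 8.54 and 69.4 ± 5.71 CPM. Nr1h3, which encodes the oxysterol receptor LXRα, had 25.3 ± 1.44 and 19.1 ± 2.76 CPM. These 3 genes, named for the smallest p-values of the list, had all KO libraries below all WT libraries, as did 18.8% of all tested genes. After the GC correction that no longer held for Nr1h3, whose log2 fold change went from -0.40 to -0.17 with an unadjusted p-value of 0.124, and Rxra went from -0.62 to -0.36. The list again had 6 lower and 0 higher genes at that limit.

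Cd163 (ENSMUSG00000008845) encodes the receptor that takes up complexes of haemoglobin and haptoglobin. It was near the detection limit, with 12, 13 and 10 counts in WT and 9, 15 and 20 counts in KO libraries, where the floor was 3 counts per library, or 0.1504 to 0.173 CPM. In CPM this was 0.602, 0.712 and 0.525 in WT and 0.469, 0.863 and 1.02 in KO libraries, and the groups overlapped. The log2 fold change was 0.35 with an SE of 0.38 and an adjusted p-value of 0.561, so a difference was not detected. With 1 library left out it ranged from 0.10 to 0.62. Of 7 genes that handle haemoglobin and haem, 6 were tested, with 3 lower and 0 higher at an unadjusted p-value under 0.05. Hmox1, the haem oxygenase that degrades haem, had 388, 438 and 387 CPM in WT and 313, 313 and 276 CPM in KO libraries, a log2 fold change of -0.43 with an adjusted p-value of 0.147. Blvrb, a biliverdin reductase, had 164 ± 1.49 CPM in WT and 134 ± 20.7 CPM in KO cultures (SD, n = 3). Slc48a1, a haem transporter, had 326 ± 16.8 and 275 ± 24.2 CPM. With the GC correction the groups overlapped in both, with log2 fold changes of -0.17 for Blvrb, from -0.29, and -0.025 for Slc48a1, from -0.24. The list then had 2 genes lower and 0 higher.

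Cd68 (ENSMUSG00000018774) encodes macrosialin, a glycoprotein of late endosomes and lysosomes that is used as a general marker of the macrophage lineage. WT libraries had 1046, 1171 and 1068 CPM, and KO libraries had 1061, 1062 and 1153 CPM. The groups mixed, and the means were 1095 ± 66.5 and 1092 ± 52.6 CPM (SD, n = 3). The log2 fold change was -0.0035 with an SE of 0.098 and an adjusted p-value of 0.985. Of 6 other lysosomal membrane glycoproteins, 4 were tested, with 1 higher and 0 lower at an unadjusted p-value under 0.05. That 1 was Cd63, a tetraspanin of late endosomes, at 553 ± 100.2 CPM in WT and 712 ± 78.8 CPM in KO cultures. Lamp1 had 1365 ± 42.5 and 1291 ± 119.96 CPM, and Lamp2 had 388 ± 44.3 and 415 ± 55.2 CPM, with overlap of the groups in both. With the GC correction Cd63 went from a log2 fold change of 0.36 to 0.65, and Lamp2 turned from 0.098 to -0.22 with the groups apart and an unadjusted p-value of 0.00670.

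Adgre1 (ENSMUSG00000004730) encodes F4/80, an adhesion receptor coupled to G proteins and the classical surface marker of mouse macrophages. Its libraries were the tightest among the 5 lower receptors, with 525, 545 and 542 CPM in WT and 435, 434 and 454 CPM in KO libraries. The groups were apart, at 537 ± 10.6 and 441 ± 11.2 CPM (SD, n = 3). This was a log2 fold change of -0.29 with an SE of 0.085 and an adjusted p-value of 0.147. After the GC correction it was -0.35 with an adjusted p-value of 0.0449, short of both limits for a call. Both other genes of this receptor group were tested, and without the correction neither had an unadjusted p-value under 0.05. Adgre4 had 1.28 ± 0.136 and 0.968 ± 0.311 CPM, and Adgre5 had 97.5 ± 7.66 and 91.0 ± 11.7 CPM. With the correction Adgre4 had a log2 fold change of -0.71, an unadjusted p-value of 0.0305 and groups apart.

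**Figure D3:**
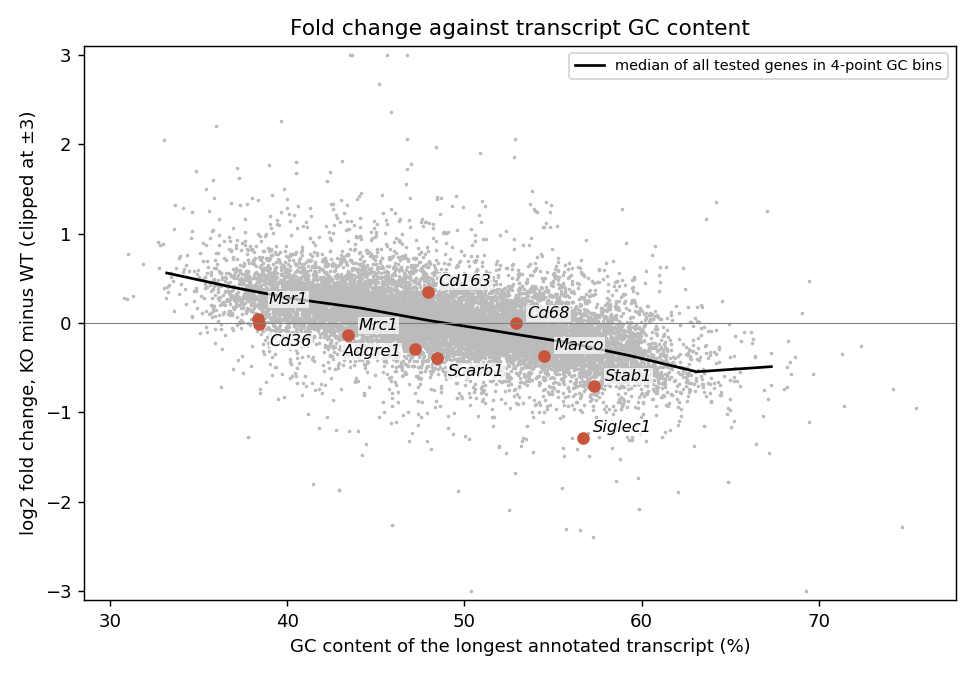
Log2 fold change, KO minus WT (vertical axis, clipped at 3 in either direction), against the GC content of the longest transcript in percent (horizontal axis) for all tested genes (grey), with their median by GC content (line) and the 10 receptors (large points, named). The line slopes downwards (r = -0.510 across genes), and Siglec1, Stab1, Marco, Scarb1, Adgre1, Mrc1, Msr1 and Cd36 lie below it.

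With the GC correction, 7 receptors had an unadjusted p-value under 0.05 and all 7 were lower in KO cultures, beside 13.5% of all tested genes that were lower and 12.4% that were higher in that fit. These were Siglec1, Stab1, Scarb1, Adgre1, Mrc1, Msr1 and Cd36, and Marco was no longer among them. At an adjusted p-value under 0.05 there were 3, namely Siglec1, Cd36 and Adgre1, beside 0.521% of all tested genes that were lower at that limit. All KO libraries were below all WT libraries in 7 receptors, beside 17.1% of all tested genes. DESeq2 with the same correction called Siglec1, Stab1 and Scarb1, with adjusted p-values of 4.59e-11, 0.000344 and 0.00886, and called 1.42% of its genes as lower. The receptors' median log2 fold change was -0.33 after the correction, and that of all tested genes was -0.0032.

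The transcription factors of macrophages were read last, since several of them set the macrophage programme. Of 11 in the list, all were tested, 8 were lower and 1 was higher at an unadjusted p-value under 0.05, with a median log2 fold change of -0.44, or -0.21 with the GC correction, under which 6 were lower and 0 higher. Mitf was the 1 that was higher, at 67.9 ± 5.69 CPM in WT and 80.9 ± 6.02 CPM in KO cultures (SD, n = 3). It is named here after its values were seen, and its log2 fold change of 0.25 was 0.073 with the GC correction. Maf, which maintains the identity of differentiated macrophages, had 112, 124 and 118 CPM in WT and 78.3, 73.6 and 84.1 CPM in KO libraries. Its log2 fold change was -0.59 with an SE of 0.094 and an adjusted p-value of 0.120, or 0.0123 after the GC correction. Cebpa, a myeloid lineage factor, had 79.8 ± 9.79 CPM in WT and 45.3 ± 8.96 CPM in KO cultures (SD, n = 3), a log2 fold change of -0.82 that the correction brought to -0.33. Over all 10 lists, 86 of 103 genes were tested, and none was called by edgeR. At an unadjusted p-value under 0.05, 33 were lower and 4 higher, beside 13.2% and 13% of all tested genes. With the GC correction 35 were lower and 5 higher, beside 13.5% and 12.4%. The lists were chosen with earlier results of these data known, so these counts describe the lists and test nothing.

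**Figure D4:**
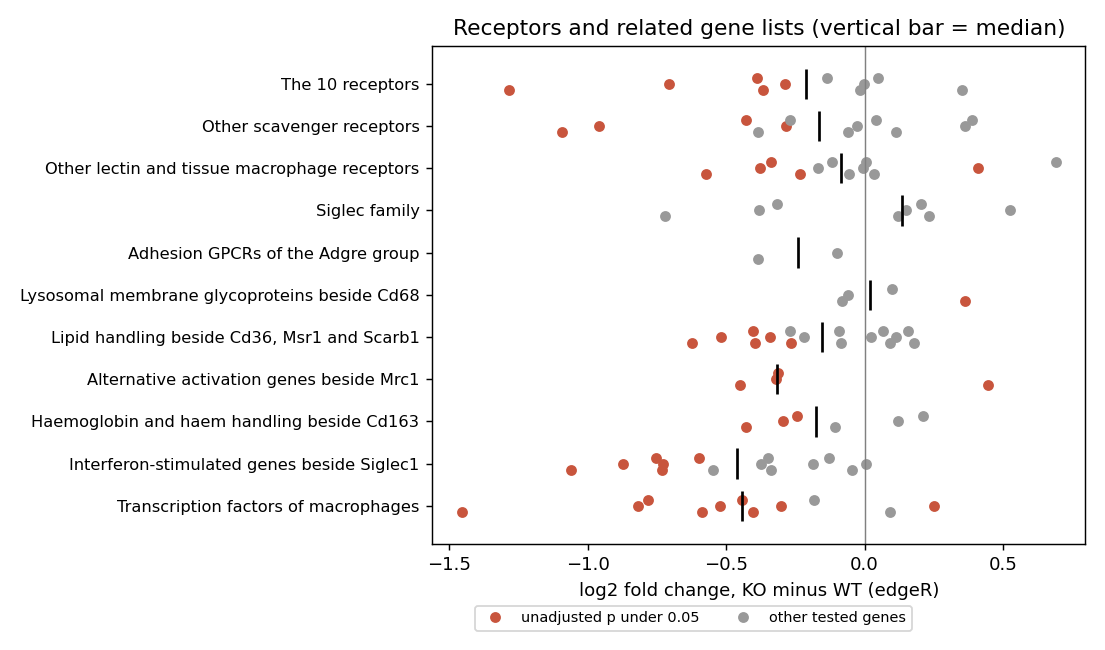
Log2 fold change, KO minus WT (horizontal axis), of the 10 receptors and of the genes of 10 related lists (rows), with 1 point per tested gene, in red where the unadjusted p-value was under 0.05, and the median of each row as a vertical bar. The plotted values have no GC correction, and the medians are -0.21 for the receptors, -0.46 for interferon-stimulated genes, -0.44 for macrophage transcription factors and 0.14 for the Siglec family. With the correction they are -0.33, -0.54, -0.21 and 0.071.

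Over the 6 libraries, the genes whose log2 level was most like that of Siglec1 were Vps33a, Slx4 and Dagla, and those most like Stab1 were B4galt5, Ints5 and Plekhm1. Pearson r was 0.9984 to 0.9997 for these 6 of 12302 genes compared, and as the points are the same 6 libraries, genotype and GC trend are shared by all of them.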

How the data were processed

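RNA of 3 WT and 3 KO cultures was sequenced after stranded mRNA library preparation. The authors deposited 1 table of estimated counts per gene, without normalization. The submitters' processing notes name fastp, HISAT2, StringTie, RSEM and GRCm39, without versions or roles. Means per genotype in that table were not used.

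Libraries were grouped by the genotype in their labels. Estimated counts were rounded, genes kept by filterByExpr (13428 of 57180), libraries scaled by TMM, and KO compared with WT by edgeR 4.0.16 (glmQLFit with legacy = FALSE, glmQLFTest, Benjamini-Hochberg adjustment) in R 4.3.3. CPM are TMM-normalized. A gene was called when its fold exceeded 1.3 (0.379 on the log2 scale) with an adjusted p-value below 0.01. The common biological coefficient of variation was 0.142. The alternatives were DESeq2 1.42.0, voom of limma 3.58.1, other scalings, filters and limits, a replicate block, a GC correction (a natural spline with 5 degrees of freedom per library, GC of the longest transcript in GENCODE M21 on GRCm38, known for 13176 tested genes, the others left as they were) and each library left out. The scripts were tested on simulated counts. Exact permutation of 3 against 3 libraries was not used for single genes, since it cannot pass the limit. The floor covers counting error only.

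The receptors and gene lists were chosen with earlier results of these data known. The genes named are all receptors, Ttc39aos1, from each list the genes called or otherwise up to 3 with the smallest p-value, and the 3 genes most like the leading 2 receptors. One gene that this rule names is not reported here. Other cell type lists, in CPM summed per library, were B cells (6.56 to 7.57 in WT and 7.33 to 9.20 in KO), endothelial cells (15.1 to 19.4 and 15.0 to 16.7), stromal cells (14.5 to 20.1 and 11.0 to 16.7), adipocytes (0 to 0.0525 and 0 to 0.0521, with Plin1 and Cidec at 0) and erythroid cells (0.109 to 0.682 and 0.0521 to 0.403).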

Additional observations from a re-analysis of the deposited data

How the results depend on the processing

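The count of receptors called was 0 in edgeR, 1 with DESeq2 (Siglec1, log2 fold change -1.28) and 3 with DESeq2 and the GC correction (Siglec1 -1.05, Stab1 -0.46, Scarb1 -0.41). Of the list genes, 0 were called by edgeR and 9 by DESeq2. Over all genes, 1 was called by edgeR, 126 by DESeq2, 339 by DESeq2 with the GC correction, 3 by edgeR with it and 0 to 2 without 1 library, where 1536 (without WT replicate 2) to 4537 (without KO replicate 1) had an unadjusted p-value under 0.05 against 3515 with all libraries. The count of receptors lower at that limit, chosen as a measure after seeing the data, was 5 or 7 in every setting. Siglec1, Stab1, Adgre1, Scarb1 and Marco stayed below 0 and under that limit without each library in turn. Siglec1 ranged from -1.54 to -1.12 there, with adjusted p-values of 0.0352 to 0.442. Msr1 changed sign with the GC correction (-0.31), that correction with the replicate block (-0.31), DESeq2 with it (-0.30) and between -0.19 and 0.16 with 1 library left out. Cd36 ranged from -0.22 to 0.10 with 1 library left out. Cd68 changed sign with the GC correction (0.12), that with the replicate block (0.11), DESeq2 with it (0.12) and ranged from -0.044 to 0.047 with 1 library left out. The cause of these changes was not tested. Same-numbered WT and KO libraries did not all deviate together (r = -0.215, 0.0766 and 0.166), and not every library correlated best with its own number. With the replicate block 0 receptors and 1 gene in all were called, and Siglec1 had an adjusted p-value of 0.0441. With the block and the GC correction together Siglec1 was at 0.0367, and Cd36 and Adgre1, under 0.05 with the correction alone, were at 0.0886 and 0.0899. Among the receptors depth limits Cd163 most, at 9 to 20 counts per library.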
